A study of Mus musculus with 11 samples.

Results

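The apoptosis regulators examined here are 9 genes of the 24411 in the count table, chosen by name: Bax, Bak1, Bcl2, Bcl2l1, Bcl2l11, Casp8, Casp9, Fas and Trp53. The rule for the choice used no measured value, although it was made with earlier results of these data known. RNA was taken from whole decapsulated testis of mice aged 20 weeks. The labels name 11 separate samples, and each is called a mouse here, although they do not state that no mouse gave more than 1 sample. The 11 libraries came from 4 WT mice (C57Bl/6J), 4 Irp1-/- mice (global knockout for Aco1, the gene of iron regulatory protein 1, allele Aco1 tm1Roua bred on C57Bl/6J) and 3 Irp2-/- mice (knockout for Ireb2, the gene of iron regulatory protein 2). No mouse received a treatment. Per the methods, WT mice were littermates from intercrosses of Irp1+/- mice, and no source used here gives the strain or controls of the Irp2-/- mice. The methods do not describe the Irp2-/- mice, so whether their knockout is global is not known here. Because the Irp1 knockout is global, every cell type of the testis carries the deletion in Irp1-/- mice. Testis RNA pools all of these cells, so fewer cells of a type and less RNA per cell cannot be told apart.

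Apoptosis is the programmed death by which the testis removes surplus and damaged germ cells in every wave of spermatogenesis. In the intrinsic pathway, BH3-only proteins such as Bim, the product of Bcl2l11, release the pore formers Bax and Bak from their guardians Bcl2 and Bcl-xL (Bcl2l1), mitochondria leak cytochrome c, and caspase-9 starts the caspase cascade. In the extrinsic pathway, the death receptor Fas recruits and activates caspase-8, and p53 (Trp53) feeds into both routes as a transcription factor that responds to DNA damage. Mouse testis depends on this balance: males without Bax are infertile with arrested germ cells, and germ cells with too little Bcl-xL are lost.

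Libraries held 15902473 to 22451417 counted reads, and in each of the 15 pairings of mice of 1 genotype the counts varied beyond sampling noise (chi-square per degree of freedom 2.003 to 7.053). Levels are given as CPM, read counts scaled to a common library size with TMM over the 11 libraries. The labels were checked on the targeted genes: Aco1 averaged 8.58 ± 0.622 CPM over 4 Irp1-/- mice (SD), below all 4 WT mice at 11.8 ± 1.36 CPM, and Ireb2 averaged 62.2 ± 0.514 CPM over 3 Irp2-/- mice against 140 ± 5.84 CPM over 4 WT mice. Reads on both genes remained in their knockouts, and which exons are deleted is not given in the sources used here. All 12 marker genes of each germ cell stage, from spermatogonia to elongating spermatids, were detected in every genotype. The 12 spermatocyte markers summed to 1300 to 1318 CPM in Irp1-/- and 1350 to 1395 CPM in WT testis, and the 12 Sertoli cell markers to 1567 to 1786 CPM in Irp1-/- and 1444 to 1540 CPM in WT testis. The 10 Leydig cell markers summed to 1120 to 1315 CPM in Irp1-/- and 836 to 1183 CPM in WT testis. In Irp1-/- against WT testis, 9 spermatocyte markers had a negative and 3 a positive log2 fold change, with 0 at an adjusted p under 0.05 (edgeR). All 12 Sertoli cell markers were positive, 1 of them past that threshold. Of the Leydig cell markers, 9 were positive and 1 negative, and 2 passed. The part of these shifts in the values below was not tested. Marker sums of the other germ cell stages, peritubular myoid cells, macrophages, T and B cells and blood overlapped between the genotypes. Epididymis markers summed to 60.25 to 69.99 CPM in Irp1-/- and 55.12 to 60.07 CPM in WT testis. Of the 8 epididymis genes, Adam7 and Lcn8 were at 0 in WT, Adam7, Lcn8 and Lcn9 in Irp1-/- and Crisp4 in Irp2-/- testis, where the sum was 47.9 to 62.3 CPM.

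Divided by transcript length, Bcl2l1 was the most abundant of the 9 regulators in testis and Bcl2, the founding guardian of the family, the least. In WT testis, Bcl2l1 reached 21.7 ± 0.808 CPM per kb of exon (SD, n = 4), ahead of Bak1 at 6.47 ± 0.626, Bax at 4.08 ± 0.495, Trp53 at 3.12 ± 0.0520 and Casp9 at 2.09 ± 0.0573 CPM per kb. These 5 genes did not overlap with their neighbours in this order. Bcl2l11 at 0.959 ± 0.112 and Casp8 at 0.867 ± 0.291 CPM per kb overlapped with each other, as did Fas at 0.200 ± 0.140 and Bcl2 at 0.123 ± 0.0232 CPM per kb. The order was the same in Irp1-/- testis, where Bax and Trp53 also overlapped. In Irp2-/- testis only the overlapping genes Casp8 and Bcl2l11 exchanged places. With the longest transcript of each gene as its length, the order was again that of WT in all 3 genotypes.

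**Figure D1:**
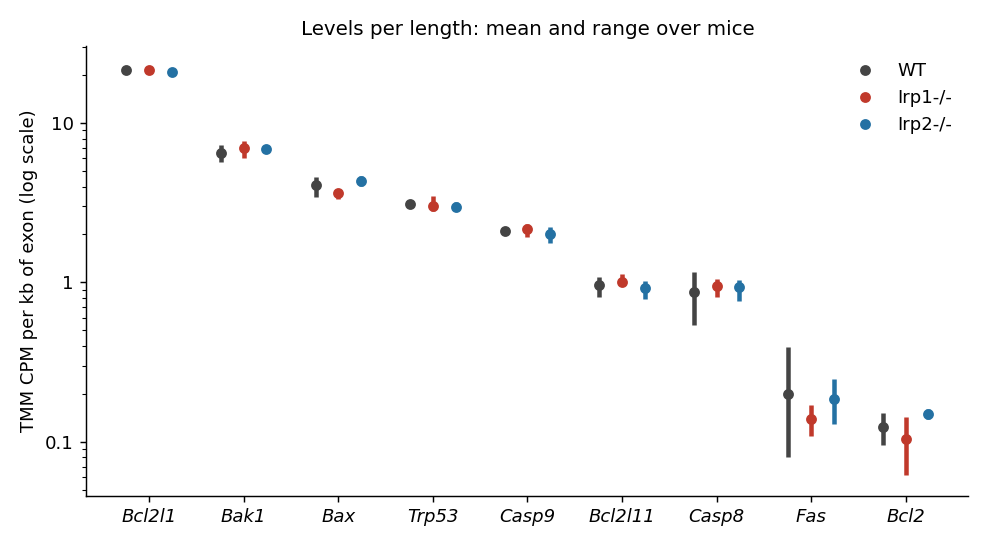
CPM per kb of exon (log scale) of the 9 regulators, ordered by their WT mean. Points are means of 4 WT, 4 Irp1-/- or 3 Irp2-/- mice and bars run from the lowest to the highest mouse. Bcl2l1 lies near 21 CPM per kb and Bcl2 and Fas below 1 CPM per kb in every genotype.

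Levels per kb in WT testis were ranked against 15668 genes that had a length and passed edgeR's low-count filter in any comparison. Fas did not pass it and was placed against the same genes. Bcl2l1 was at the percentile 82.8, Bak1 at 61.9, Bax at 52.4 and Trp53 at 46.9. Casp9 stood at the percentile 39.2, Bcl2l11 at 25.4, Casp8 at 23.8, Fas at 5.84 and Bcl2 at 2.48. The pore formers and the guardian Bcl2l1 were thus at or above the middle of these filtered genes on this scale, and the death receptor Fas and the guardian Bcl2 near their bottom. Genes with too few reads for the filter are left out of this ranking.

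The promoters of Bcl2l1 and Bcl2 are shown because these guardians mark the ends of this order, and that of Bax because Bax is a textbook target of p53. The sequences are those of RefSeq for GRCm38.p6, which has the coordinates of the mm10 build used for the counts, and run from 250 bases before to 50 after a transcript start. Capitals mark the GC box (GGGCGG on either strand) in Bcl2 and the p53 decamer, the unit that is repeated in a full p53 site, in Bax.
Bcl2l1 promoter, chr2:152831679-152831978, minus strand: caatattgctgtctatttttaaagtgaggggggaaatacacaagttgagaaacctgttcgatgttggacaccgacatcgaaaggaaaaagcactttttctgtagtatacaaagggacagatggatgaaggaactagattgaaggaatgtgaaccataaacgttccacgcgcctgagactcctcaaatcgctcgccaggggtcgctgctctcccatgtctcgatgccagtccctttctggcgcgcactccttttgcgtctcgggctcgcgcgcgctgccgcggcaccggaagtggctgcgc
Bcl2 promoter, chr1:106714241-106714540, minus strand: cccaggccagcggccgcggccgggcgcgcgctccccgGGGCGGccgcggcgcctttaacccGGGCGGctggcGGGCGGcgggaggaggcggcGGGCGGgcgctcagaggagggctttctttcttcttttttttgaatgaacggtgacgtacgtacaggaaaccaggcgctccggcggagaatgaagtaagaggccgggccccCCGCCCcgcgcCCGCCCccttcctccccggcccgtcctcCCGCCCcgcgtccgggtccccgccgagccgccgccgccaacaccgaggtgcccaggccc
Bax promoter, chr7:45466849-45467148, minus strand: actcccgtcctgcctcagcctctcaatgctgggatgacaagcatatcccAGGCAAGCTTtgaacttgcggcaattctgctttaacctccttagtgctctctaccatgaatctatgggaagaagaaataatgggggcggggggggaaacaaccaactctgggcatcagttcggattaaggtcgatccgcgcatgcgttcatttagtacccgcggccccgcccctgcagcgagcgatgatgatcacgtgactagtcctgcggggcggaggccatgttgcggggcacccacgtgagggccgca
The Bcl2 promoter held 7 GC boxes without overlap and was 76.0% G and C, against 57.3% for Bax, 52.3% for Bcl2l1 and a median of 52.7% over 32851 promoters. A GC box occurred in 35.7% of all promoters, and none of the 3 promoters of Bcl2l1 in RefSeq had a match to it. The p53 decamer occurred in 8.36% of all promoters, and among the 12 promoters of the 9 regulators it was found once in Bax and once in Trp53. The Bax promoter also held 3 GC boxes, in lower case here, and 2 E boxes (CACGTG), which occurred in 7.15% of all promoters. These matches describe letters within the window and are not measured sites.

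To ask whether loss of either iron regulatory protein changed the RNA of these regulators, each knockout was compared with WT testis and the knockouts with each other. None of the 8 regulators kept by edgeR's low-count filter had an adjusted p under 0.05 (edgeR's quasi-likelihood test, Benjamini-Hochberg adjustment over all genes tested) in any comparison. The count was 0 of 8 in Irp1-/- against WT testis, where 1.02% of 16002 genes passed, and 0 of 8 at an unadjusted p under 0.05, where 12.1% passed. DESeq2 also gave 0 there, adjusted (1.49% of the 11996 genes given an adjusted p) or unadjusted (7.11%), but it gave Bcl2 and Casp8 no adjusted p. None of the 8 was free of overlap between the genotypes (6.63% of genes). For Irp2-/- against WT testis edgeR again called 0 of 8, with 1.21% of 16154 genes past the adjusted and 9.43% past the unadjusted threshold. DESeq2 called 0 as well, adjusted (1.07% of genes) or unadjusted (5.16%), and none of the 8 was free of overlap (9.23% of genes). Between the knockouts edgeR called 0 of 8 where 4.69% of 16281 genes passed, and 1 of 8, Bax, at an unadjusted p under 0.05, where 16.3% passed. DESeq2 called 0 of the 8 there, adjusted (4.06% of genes) or unadjusted (9.9%). The ninth gene, Fas, did not pass the filter. The comparisons with WT share the 4 WT mice and are set side by side only.

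The median log2 fold change of the 8 regulators was 0.02 in Irp1-/- against WT testis, with 4 above and 4 below 0, beside -0.00078 over all genes tested. It was 0.02 in Irp2-/- against WT testis, again with 4 above and 4 below 0, beside 0.0033 over all genes. Between the knockouts it was 0.03, with 6 above and 2 below 0, beside -0.0019 over all genes.

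**Figure D2:**
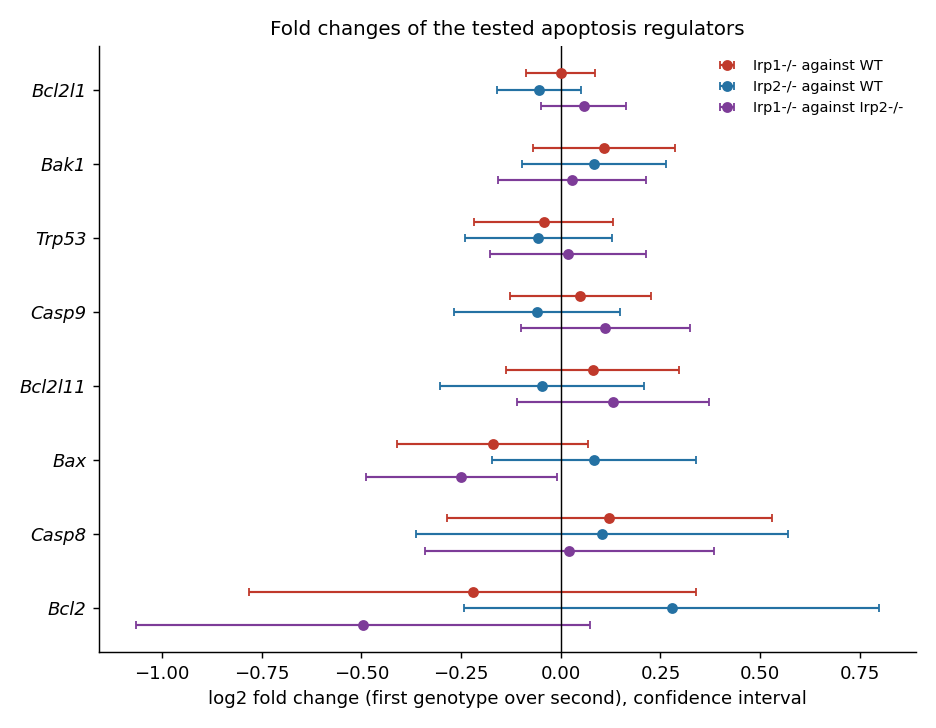
Log2 fold change of the 8 tested regulators (points) with its 95% confidence interval (bars) from edgeR, for Irp1-/- against WT, Irp2-/- against WT and Irp1-/- against Irp2-/- testis. Intervals are narrowest for Bcl2l1 and widest for Bcl2, and only that of Bax in Irp1-/- against Irp2-/- testis, -0.49 to -0.01, leaves out 0.

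The guardian Bcl2l1 (chromosome 2, 152780668 to 152831728, minus strand) was the most precisely measured member, with 1508 to 2247 reads per library. WT testes had 104, 96.9, 101 and 96.0 CPM, Irp1-/- testes 103, 101, 98.4 and 94.8 CPM, and Irp2-/- testes 91.3, 94.8 and 101 CPM. The 3 genotypes overlapped, and the coefficient of variation was 3.73% in WT and 3.66% in Irp1-/- testis. The fold of Irp1-/- over WT was 1.00 with a 95% confidence interval of 0.942 to 1.06 (adjusted p = 0.999, edgeR), and that of Irp2-/- over WT was 0.963 with an interval of 0.895 to 1.04 (adjusted p = 0.846, edgeR). The direction in Irp1-/- against WT testis, so close to a fold of 1.00, changed with the scaling.

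The guardian Bcl2 (chromosome 1, 106538178 to 106714274, minus strand) rested on 9 to 33 reads per library. WT testes had 1.18, 0.870, 1.09 and 1.38 CPM, Irp1-/- testes 0.785, 1.30, 1.15 and 0.566 CPM, and Irp2-/- testes 1.47, 1.28 and 1.37 CPM. Irp1-/- replicates 1 and 7 were the lowest of all mice, replicates 2 and 6 lay within the WT range, and the genotypes overlapped. The coefficient of variation in Irp1-/- testis was 35.4%, where counting error alone gives 22.9%. Its log2 fold change came to -0.22 (standard error 0.273, adjusted p = 0.816, edgeR) in Irp1-/- and 0.28 (standard error 0.252, adjusted p = 0.840, edgeR) in Irp2-/- against WT testis. Between the knockouts it was -0.50 with a 95% confidence interval of -1.06 to 0.07 (adjusted p = 0.398, edgeR), so that a fold between 0.478 and 1.05 was compatible with the counts. Bcl2 shares 558 bases of exon with an antisense gene on the opposite strand, and as the strand setting of the counting is not stated, their reads may not be separate.

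Of the pore formers, Bax (chromosome 7, 45461697 to 45466898, minus strand) had 96 to 151 reads per library. WT testes had 6.77, 6.28, 7.24 and 5.42 CPM, Irp1-/- testes 6.02, 5.26, 5.59 and 6.03 CPM, and Irp2-/- testes 6.72, 6.36 and 7.31 CPM. Every Irp1-/- mouse was below every Irp2-/- mouse, while WT overlapped with both. Groups without overlap occurred for 15.2% of all genes in that comparison, and for none of the other 7 tested regulators. The log2 fold change of Irp1-/- against Irp2-/- testis was -0.25 (standard error 0.115, 95% confidence interval -0.49 to -0.01), and it did not pass the adjustment over all genes (adjusted p = 0.279, edgeR, and 0.580, DESeq2). Against WT it was -0.17 (standard error 0.116, adjusted p = 0.603, edgeR) in Irp1-/- and 0.08 (standard error 0.124, adjusted p = 0.925, edgeR) in Irp2-/- testis. In Irp2-/- testis the Leydig cell markers summed to 865 to 1128 CPM and the Sertoli cell markers to 1396 to 1613 CPM, each overlapping with Irp1-/- testis. Single markers did differ in Irp1-/- against Irp2-/- testis. All 10 Leydig cell markers had a positive log2 fold change, 4 of them with an adjusted p under 0.05 (edgeR). Of the 12 Sertoli cell markers, 9 were positive and 3 negative, and 3 passed, beside 4.69% of all genes. The sums of the 8 endothelial markers did not overlap, at 43.9 to 45.9 CPM in Irp1-/- and 51.7 to 55.4 CPM in Irp2-/- testis. Of the 8, 3 had a positive and 5 a negative log2 fold change in Irp1-/- against Irp2-/- testis. The part of these cell type markers in the Bax values was not tested.

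Bak1, the other pore former (chromosome 17, 27019810 to 27029009, minus strand), had 230 to 414 reads per library. WT testes had 15.5, 17.5, 15.5 and 13.8 CPM, Irp1-/- testes 17.9, 18.6, 15.7 and 14.5 CPM, and Irp2-/- testes 15.9, 17.5 and 15.9 CPM. All genotypes overlapped, with log2 fold changes of 0.11 (95% confidence interval -0.07 to 0.29) in Irp1-/- and 0.08 (-0.10 to 0.26) in Irp2-/- against WT testis. Exons of Bak1 overlap on the opposite strand with Ggnbp1, a far more abundant testis gene at 692 CPM in WT, whose own log2 fold change in Irp1-/- against WT testis was -0.04 (adjusted p = 0.670, edgeR).

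**Figure D3:**
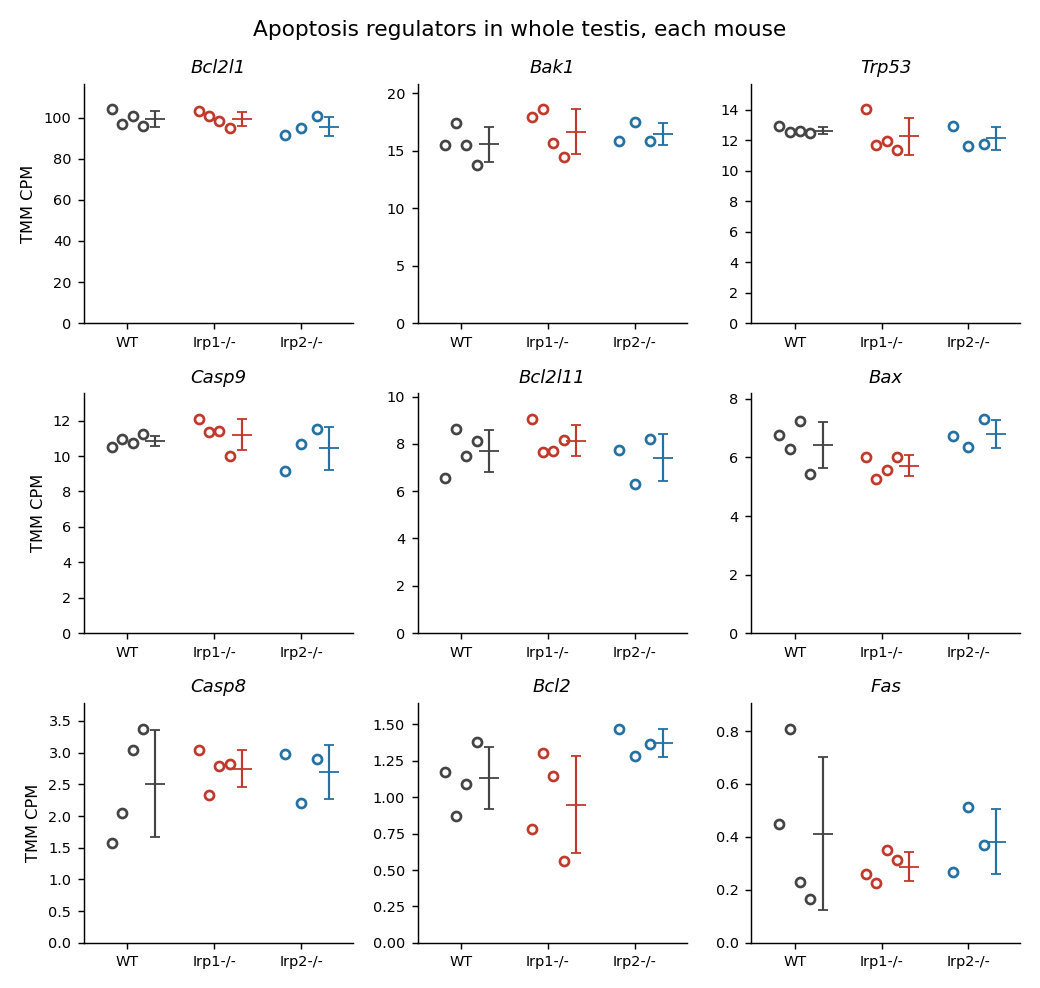
TMM CPM of the 9 regulators in each mouse (open circles), with the mean and SD beside them, for 4 WT, 4 Irp1-/- and 3 Irp2-/- testes; each axis starts at 0. Circles of the 3 genotypes overlap for each gene except Bax, where Irp1-/- (5.26 to 6.03 CPM) lies below Irp2-/- (6.36 to 7.31 CPM).

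Bcl2l11, which encodes the BH3-only activator Bim (chromosome 2, 128126038 to 128162547, plus strand), had 117 to 174 reads per library. WT testes had 6.55, 8.64, 7.47 and 8.13 CPM, Irp1-/- testes 9.05, 7.64, 7.68 and 8.17 CPM, and Irp2-/- testes 7.75, 6.31 and 8.21 CPM. Irp1-/- replicate 1 was the highest and Irp2-/- replicate 2 the lowest of all mice, the genotypes overlapped, and the log2 fold changes against WT were 0.08 (95% confidence interval -0.14 to 0.30) in Irp1-/- and -0.05 (-0.30 to 0.21) in Irp2-/- testis. Casp9, the initiator caspase of the mitochondrial route (chromosome 4, 141793612 to 141815976, plus strand), had 10.5, 10.9, 10.7 and 11.2 CPM in WT, 12.1, 11.3, 11.4 and 9.99 CPM in Irp1-/- and 9.13, 10.7 and 11.5 CPM in Irp2-/- testes. Irp1-/- replicate 7 was below all WT mice and the other 3 Irp1-/- mice above them. The log2 fold changes of Casp9 against WT were 0.05 (-0.13 to 0.23) and -0.06 (-0.27 to 0.15). Casp9 lies on the same chromosome as Aco1, which starts at 40143081, far from it.

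In the extrinsic pathway, Fas, the death receptor (chromosome 19, 34290666 to 34327772, plus strand), had only 3 to 13 reads per library. WT testes had 0.448, 0.808, 0.230 and 0.166 CPM, Irp1-/- testes 0.262, 0.225, 0.349 and 0.314 CPM, and Irp2-/- testes 0.267, 0.513 and 0.368 CPM. The WT mice held both the highest and the lowest value, so the knockouts lay within the WT range. Over the libraries of a genotype, Fas had 28 reads in WT (95% exact Poisson interval 18.6 to 40.5), 22 in Irp1-/- (13.8 to 33.3) and 23 in Irp2-/- testis (14.6 to 34.5), intervals that cover counting error only. A fit without the filter gave a fold of 0.707 in Irp1-/- over WT with an interval of 0.357 to 1.40, so a difference was not detectable at this depth.

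Casp8, the initiator caspase below Fas (chromosome 1, 58795374 to 58847503, plus strand), had 28 to 67 reads per library. WT testes had 1.57, 2.05, 3.05 and 3.37 CPM, Irp1-/- testes 3.03, 2.34, 2.79 and 2.83 CPM, and Irp2-/- testes 2.98, 2.20 and 2.89 CPM. The coefficient of variation was 33.6% in WT, where counting error gives 15.1%, and 10.7% in Irp1-/- testis. The knockouts sat within the wide WT range, with log2 fold changes of 0.12 (95% confidence interval -0.29 to 0.53) in Irp1-/- and 0.10 (-0.36 to 0.57) in Irp2-/- against WT testis. Without WT replicate 1, the lowest mouse, these turned to -0.05 and -0.07.

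Trp53, which encodes p53 (chromosome 11, 69580359 to 69591873, plus strand), had 181 to 291 reads per library. WT testes had 12.9, 12.6, 12.6 and 12.4 CPM, Irp1-/- testes 14.0, 11.7, 11.9 and 11.4 CPM, and Irp2-/- testes 13.0, 11.6 and 11.7 CPM. The WT mice were nearly alike, with a coefficient of variation of 1.67% where counting error gives 6.75%. In each knockout 1 mouse was above the WT range and the others below it. The log2 fold change against WT was -0.04 (95% confidence interval -0.22 to 0.13) in Irp1-/- and -0.06 (-0.24 to 0.13) in Irp2-/- testis, or folds of 0.860 to 1.10 and 0.846 to 1.09.

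The balance of pore formers and guardians was next compared as a ratio of counts within each library, which needs no scaling between libraries. Bax to Bcl2 was 5.76, 7.21, 6.63 and 3.92 in WT, 7.67, 4.03, 4.87 and 10.7 in Irp1-/- and 4.58, 4.96 and 5.35 in Irp2-/- testes. The ratio ranged most widely in Irp1-/- testis, where replicate 7 rested on 9 Bcl2 reads, and Irp2-/- values lay within the WT range. The mean log2 ratio was 2.66 ± 0.63 (SD, n = 4) in Irp1-/- and 2.52 ± 0.39 (SD, n = 4) in WT testis, a difference of 0.14 (two-sided exact permutation test, p = 0.686). The knockouts differed by 0.35 (exact permutation p = 0.429).

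Because Bcl2l1 is counted far more deeply, ratios to it carry less counting error. Bax to Bcl2l1 was 0.0651, 0.0648, 0.0720 and 0.0565 in WT, 0.0583, 0.0521, 0.0568 and 0.0637 in Irp1-/- and 0.0736, 0.0670 and 0.0726 in Irp2-/- testes. As for Bax alone, every Irp1-/- mouse was below every Irp2-/- mouse. The log2 ratio was lower by a difference of -0.30 in Irp1-/- than in Irp2-/- testis (two-sided exact permutation test, p = 0.0571, and 0.513 adjusted over the 9 ratio tests), where 4 mice against 3 can reach 0.0286 at best. Against WT the difference was -0.16 in Irp1-/- (exact permutation p = 0.171) and 0.14 in Irp2-/- testis (exact permutation p = 0.143), and neither passed. Bak1 to Bcl2l1 lay between 0.143 and 0.185 in all 11 mice, with differences of 0.10 in Irp1-/- (exact permutation p = 0.314) and 0.14 in Irp2-/- against WT testis (exact permutation p = 0.229).

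**Figure D4:**
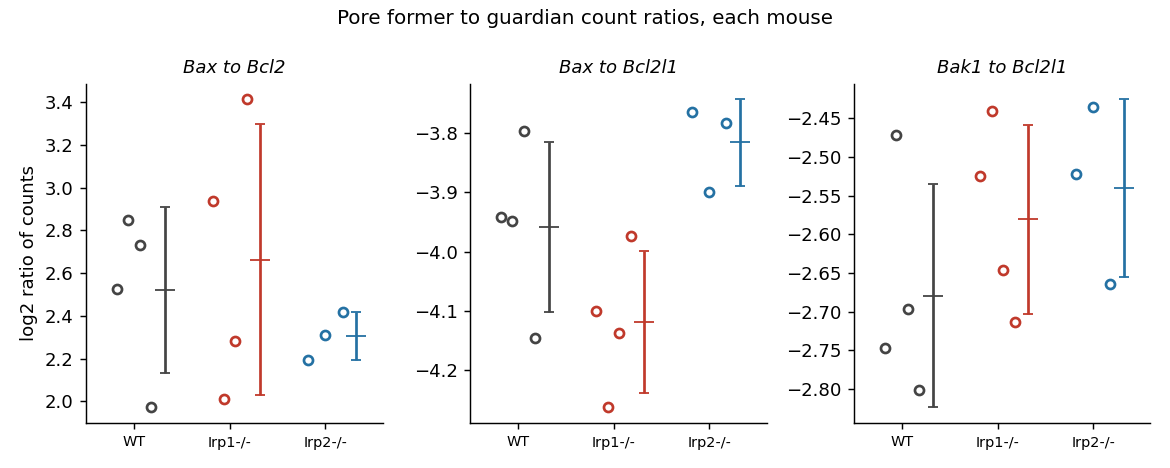
Log2 ratio of the counts of a pore former to a guardian in each mouse (open circles), with the mean and SD beside them; the 3 panels have their own axes. For Bax to Bcl2l1 the 4 Irp1-/- mice lie below the 3 Irp2-/- mice, with means of -4.12 and -3.82, and for the other ratios all genotypes overlap.

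The surrounding pathway was read from 9 lists with 100 further genes in the table: guardians, pore formers and BH3-only genes, the apoptosome, caspases, inhibitors of apoptosis, death receptors and their adaptors, regulators of p53, p53 targets, and genes for engulfing dead cells. Compared to WT, 1 of 85 tested genes rose in Irp1-/- testis (Mfge8) and 1 fell (Hipk2), a share of 2.35% where 1.02% of all genes passed. Of 87 tested in Irp2-/- against WT testis, 2 rose (Birc6 and Hipk2), or 2.30% where 1.21% of all genes passed. Irp1-/- testis was lower than Irp2-/- testis in 3 of 87 (Hipk2, Birc6 and Sesn1), or 3.45% where 4.69% of all genes passed. DESeq2 called 2, 1 and 3 genes of these lists. The lists were chosen with earlier results of these data known, so their shares of calls are a description only. The median log2 fold change of the tested genes was 0.01, 0.04 and 0.02 in the 3 comparisons. Outside these genes no list had a call: the other guardians (2 tested), the other pore formers and BH3-only genes (7 tested), the apoptosome (10 tested) and the death receptors (12 tested in each comparison with WT) had 0 genes past the adjusted threshold of edgeR and of DESeq2 in every comparison. At an unadjusted p under 0.05 in edgeR, these 4 lists had 1, 1, 1 and 2 genes in Irp1-/- and 0, 1, 0 and 0 in Irp2-/- against WT testis, and 1, 0, 1 and 0 between the knockouts, beside 12.1%, 9.43% and 16.3% of all genes. The regulators of p53 had 4 of 11 at that threshold in Irp1-/- against WT testis (36.4%), with 10 of 11 log2 fold changes negative and a median of -0.05, and 2 of 12 in Irp2-/- against WT and 3 of 11 between the knockouts. The inhibitors of apoptosis had 0 of 5, 1 of 7 and 1 of 6, and the engulfment genes 2, 1 and 4 of 11. The other caspases (5 or 6 tested) had 0 at any of these thresholds.

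Hipk2, a kinase that phosphorylates p53 and favours its pro-apoptotic targets (chromosome 6, 38694390 to 38876165, minus strand), separated the 3 genotypes. WT testes had 23.01, 24.05, 24.6 and 24.1 CPM, Irp1-/- testes 20.1, 19.8, 19.0 and 20.4 CPM, and Irp2-/- testes 28.3, 28.9 and 28.5 CPM. No mouse of a genotype overlapped with another genotype. Groups without overlap occurred for 6.63% of all genes in Irp1-/- against WT, 9.23% in Irp2-/- against WT and 15.2% in Irp1-/- against Irp2-/- testis. Hipk2 was named for its small adjusted p in these comparisons, so the separation adds no support of its own. Relative to WT, the log2 fold change came to -0.28 (standard error 0.0623, adjusted p = 0.0234, edgeR) in Irp1-/- and 0.26 (standard error 0.0629, adjusted p = 0.0416, edgeR) in Irp2-/- testis, comparisons that share their WT mice. Tested directly, Irp1-/- was lower than Irp2-/- testis by -0.53 on the log2 scale with a 95% confidence interval from -0.66 to -0.39 (adjusted p = 1.83e-05, edgeR). Its fold changed little when a mouse was left out, from -0.29 to -0.26 in Irp1-/- and from 0.24 to 0.27 in Irp2-/- testis against WT, but not every call was kept. The adjusted p in edgeR was 0.0702 to 0.0861 once Irp1-/- replicate 1 or 6, or WT replicate 2, 3 or 4, was left out, it was 0.0643 to 0.153 in Irp2-/- against WT testis without any 1 of the 7 mice, and DESeq2 gave 0.148 for the latter.

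Birc6, a giant inhibitor of apoptosis protein that binds caspases and is also a ubiquitin ligase (chromosome 17, 74528295 to 74703356, plus strand), had 46.3, 43.1, 47.6 and 53.4 CPM in WT, 43.5, 44.0, 48.7 and 49.0 CPM in Irp1-/- and 61.0, 55.3 and 58.5 CPM in Irp2-/- testes. The Irp2-/- mice were above all others. Birc6 rose by a log2 fold change of 0.29 in Irp2-/- against WT testis (standard error 0.0641, adjusted p = 0.0167, edgeR), and the adjusted p was 0.0577 to 0.0843 without Irp2-/- replicate 1 or 3 or WT replicate 2. Irp1-/- was lower than Irp2-/- testis by -0.33 on the log2 scale (adjusted p = 0.00124, edgeR), with an adjusted p of 0.000734 to 0.0125 when any 1 mouse was left out.

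Sesn1, a p53 target that restrains growth signalling under stress (chromosome 10, 41809935 to 41908424, plus strand), had 22.5, 19.4, 22.6 and 26.0 CPM in WT, 21.1, 22.9, 23.7 and 22.5 CPM in Irp1-/- and 27.6, 27.2 and 25.6 CPM in Irp2-/- testes. Every Irp1-/- mouse was below every Irp2-/- mouse, and WT replicate 4 reached into the Irp2-/- range. The log2 fold change of Irp1-/- against Irp2-/- testis was -0.25 (adjusted p = 0.0342, edgeR, and 0.0832, DESeq2). Its adjusted p in edgeR was 0.0581 to 0.131 without Irp1-/- replicate 1, 2 or 7 or Irp2-/- replicate 1 or 2. The sum of the 8 endothelial markers was likewise highest in Irp2-/- testis, at 51.7 to 55.4 CPM. It was 43.9 to 45.9 CPM in Irp1-/- and 44.7 to 48.2 CPM in WT testis. Of the 8 markers, 4 had a positive and 4 a negative log2 fold change in Irp2-/- against WT testis. The part of these markers in the Hipk2, Birc6 and Sesn1 results was not tested. None of the other 23 tested p53 targets passed in any comparison (edgeR). Of the 24 p53 targets, 3 had an unadjusted p under 0.05 in Irp1-/- against WT testis (edgeR), a share of 12.5% beside 12.1% of all genes, and DESeq2 called 0 of them. Over that list 11 log2 fold changes were positive and 13 negative.

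Mfge8, a secreted bridge by which phagocytes, Sertoli cells in the testis, bind dying cells (chromosome 7, 79133768 to 79149060, minus strand), had 61.4, 61.1, 60.1 and 63.8 CPM in WT, 86.7, 66.8, 79.5 and 82.6 CPM in Irp1-/- and 70.4, 58.4 and 61.4 CPM in Irp2-/- testes. All Irp1-/- mice were above all WT mice, with replicate 2 closest to them. Mfge8 rose by a log2 fold change of 0.35 in Irp1-/- against WT testis (standard error 0.0621, adjusted p = 0.00672, edgeR), with an adjusted p of 3.57e-06 to 0.0378 when any 1 mouse was left out. Against Irp2-/- testis the log2 fold change was 0.31 (adjusted p = 0.0555, edgeR, and 0.00621, DESeq2). Sertoli cell markers moved the same way: 12 of 12 had a positive log2 fold change in Irp1-/- against WT testis, 1 of them past the threshold, with a median of 0.11, and their part in the Mfge8 result was not tested. The other 10 tested engulfment genes did not pass in any comparison (edgeR).

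**Figure D5:**
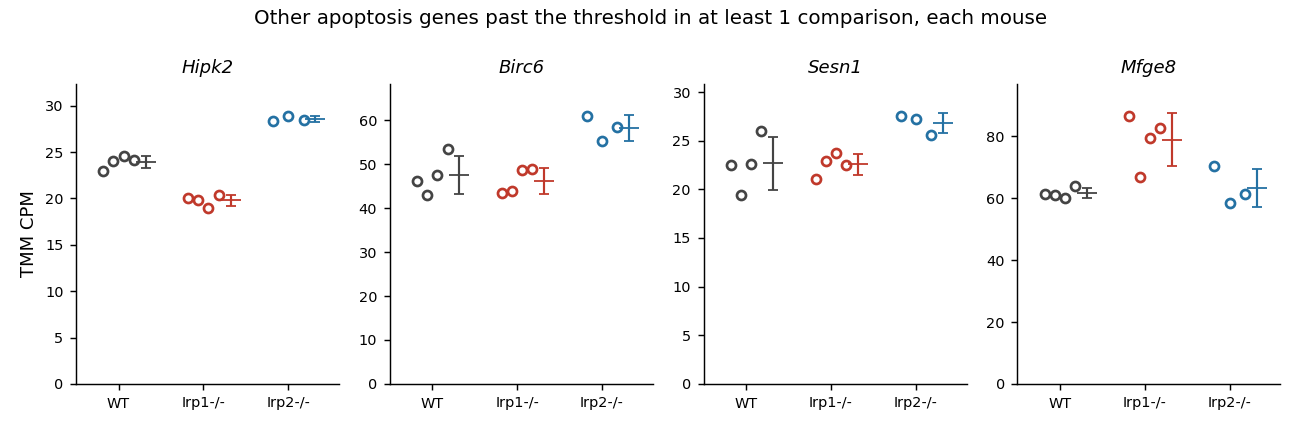
TMM CPM of Hipk2, Birc6, Sesn1 and Mfge8 in each mouse (open circles), with the mean and SD beside them; each axis starts at 0. Hipk2 separates the 3 genotypes, at 19.0 to 20.4 CPM in Irp1-/-, 23.01 to 24.6 CPM in WT and 28.3 to 28.9 CPM in Irp2-/- testis.

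Across the 11 mice, the gene whose log2 CPM followed each regulator most closely was sought among 16356 genes and, separately, among 96 genes of the pathway lists, as a description over libraries of 3 genotypes. Each r is thus the highest of many over few mice, and how high such a maximum runs by chance was not tested. Bcl2 was followed most closely by Taok3 (Pearson r = 0.950), Bcl2l11 by Ifnar2 (r = 0.933), Casp8 by Trim21 (r = 0.926) and Casp9 by Speer4e (r = 0.916). Bcl2l1 was closest to 4933421I07Rik (r = 0.915), Bax to Eri1 (r = 0.891), and Bak1 and Trp53 to Tcf21 and Wash1 (r = 0.884 each). Within the pathway, Bax was closest to Hipk2 (r = 0.659), Bcl2 to Sesn1 (r = 0.686), Bcl2l1 to Mdm4 (r = 0.740) and Casp9 to Bcl2l1 (r = 0.690). Bcl2l11 was closest to Tradd (r = 0.756), Casp8 to Aifm1 (r = 0.810), Trp53 to Bid (r = 0.643) and Bak1 to Tnfrsf10b (r = 0.548). The rank correlation (Spearman) of the pairs within the pathway ran from 0.536 for Bcl2l11 and Tradd to 0.855 for Bcl2 and Sesn1.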

How the data were processed

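RNA from decapsulated testis of 11 mice was enriched for polyadenylated mRNA, prepared with the Illumina stranded mRNA kit and sequenced as paired-end reads. The authors deposited a table of raw, unnormalized counts for each gene from version 3.7 of the nf-core workflow, run with the iGenomes files of mm10. The counting tool and its strand setting are not given in the sources used here, so whole numbers could be rounded estimates. Demultiplexing used bcl2fastq, version 2.20.0.422 in the submitters' processing notes. Every column name includes the letter L except that of Irp1-/- replicate 6, which has R, and no source says what it means. Columns were assigned to genotypes by sample title.

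Counts were fitted in R 4.3.3 with edgeR 4.0.16 (filterByExpr, TMM, robust quasi-likelihood test, Benjamini-Hochberg adjustment over all genes tested, threshold 0.05), with the mice of the 2 genotypes compared. DESeq2 1.42.0, the tool of the study, was an alternative, and gave no adjusted p for Bcl2, Casp8 and Fas in Irp1-/- against WT testis. The other alternatives were RLE normalization, no count filter, at least 10 counts in every sample, a fit of all samples, a replicate block and leaving out each mouse. Ratios were tested with two-sided exact permutation tests over mice (scipy 1.17.1). Lengths and positions came from GENCODE M21 (GRCm38), per kb of the union of exons, and log2 CPM values for correlations had a prior count of 2. The edgeR step was tested on simulated data. Totals of 15902473 to 22451417 counts set the precision, and intervals from counts cover counting error only. The labels do not say more of replicates than that they are separate samples, so p-values measure the spread between these samples.

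The members, the pathway lists and the marker lists were chosen with earlier results of these data known. Of 102 symbols on the pathway lists besides the members, 100 were in the table. Named genes were the 9 members, Aco1, Ireb2, up to 4 pathway genes with the smallest adjusted p among those called in each comparison, and the most similar gene to each tested member. Some genes of the lists are not reported here by name.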

Additional observations from a re-analysis of the deposited data

Results flagged for a closer look

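The direct test of Irp1-/- against Irp2-/- testis called 3 of 87 pathway genes, or 3.45% where 4.69% of all genes passed. As the strain and controls of the Irp2-/- mice are not given, knockout and mouse line cannot be told apart here. Hipk2 differed by -0.53 on the log2 scale (adjusted p = 1.83e-05, edgeR), lower in all 4 Irp1-/- than in all 3 Irp2-/- mice. Birc6 differed by -0.33 (adjusted p = 0.00124, edgeR) and Sesn1 by -0.25 (adjusted p = 0.0342, edgeR), each also without overlap. Groups without overlap occurred for 15.2% of all genes. Sesn1 was not called by DESeq2 (adjusted p = 0.0832), and its adjusted p in edgeR reached 0.131 when 1 mouse was left out. None of the 9 regulators was flagged in this way. No mouse stood apart from the others of its genotype in any of 56 groups of 4 examined, where chance would give about 2.8.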

How the results depend on the processing

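No regulator was called in any of 43 fits over settings and comparisons (348 values), and the smallest adjusted p was 0.248 (edgeR), for Bcl2 in Irp1-/- against Irp2-/- testis without Irp1-/- replicate 2. Depth limits Fas, Bcl2 and Casp8 most. Directions near 0 changed with the setting, and the cause was not tested. For Irp1-/- against WT testis, Bcl2l1 became 0.00086 with RLE, 0.0033 with at least 10 counts in every sample, 0.00071 with DESeq2 and 0.0030 in a fit of all samples. The Bax to Bcl2 difference in Irp1-/- against WT testis became -0.0168 with medians in place of means. In Irp2-/- against WT testis DESeq2 called 1 pathway gene in place of 2. Mfge8 in Irp1-/- against Irp2-/- testis passed with an adjusted p of 0.0143 to 0.0372 in the fit of all samples, the replicate block and the stricter filter, and Sesn1 had 0.0532 in the fit of all samples.

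Deviations from the genotype mean correlated at -0.0142 to 0.121 over 7 pairs of same-numbered mice, beside -0.139 to 0.0982 for differently numbered mice. Correlations this weak cannot settle whether numbers pair the mice, and the labels do not say. A fit with the replicate block compares genotypes only within numbers that both share. These were 1 and 2 for Irp1-/- against WT or Irp2-/- testis and 1 to 3 for Irp2-/- against WT testis, so the other mice add nothing. With this block, Irp1-/- against WT testis had 439 calls in place of 164, 4 of them pathway genes. Bcl2 became 0.0198, Bcl2l1 0.0227, Trp53 0.0081 and Sesn1 0.0690. Pathway genes called under the block were 1 in Irp2-/- against WT and 5 in Irp1-/- against Irp2-/- testis, and Hipk2 lost its call in both comparisons with WT at a similar log2 fold change (-0.24 and 0.26, adjusted p = 0.184 and 0.134, edgeR).

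Leaving out each mouse gave 55 to 216 calls in Irp1-/- against WT (lowest without Irp1-/- replicate 1, and 84 to 106 without Irp1-/- replicate 6 or WT replicate 2 or 4), 118 to 223 in Irp2-/- against WT (lowest without Irp2-/- replicate 2) and 414 to 763 in Irp1-/- against Irp2-/- testis (lowest without Irp2-/- replicate 2, and 471 without Irp1-/- replicate 1). Pathway genes called were 1 to 3, 0 to 2 and 2 to 4. Among log2 fold changes of Irp1-/- against WT testis, Bcl2l1 ranged from -0.0186 to 0.0256, Casp8 from -0.0498 to 0.302, Birc6 from -0.0846 to 0.0167, Sesn1 from -0.0691 to 0.0664 and Bax to Bcl2 from -0.11 to 0.36. In Irp2-/- against WT testis Bcl2l11 ranged from -0.130 to 0.0565, Casp8 from -0.0719 to 0.284, Casp9 from -0.142 to 0.0333 and Mfge8 from -0.0382 to 0.103. Between the knockouts Bak1 ranged from -0.0285 to 0.0865, Casp8 from -0.104 to 0.105, Trp53 from -0.0528 to 0.0699 and Bak1 to Bcl2l1 from -0.102 to 0.0123.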

Other observations

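Levels of other pathway genes in WT testis, named here after their values were seen, spanned a wide range per length. Cyct, the testis form of cytochrome c, had 95.0 CPM per kb, the mitochondrial channel genes Vdac2 and Vdac3 had 85.1 and 53.9 CPM per kb, and Diablo, which relieves the inhibitors of apoptosis once released, had 45.7 CPM per kb. The p53 ligase gene Mdm2 stood at 39.2 and the guardian Mcl1 at 28.4 CPM per kb, so that Mcl1 was above Bcl2l1 at 21.7 CPM per kb. The apoptosome scaffold gene Apaf1 had 0.477 CPM per kb. Casp14 had 0 counts in all 11 libraries, and Bcl2l10 had at most 1 count. A count of 0 in a single library allows up to 3 counts, and 0 in all 11 libraries allows less per library.

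Some pathway genes, also named after their values were seen, had sizable log2 fold changes in Irp1-/- against WT testis that did not pass the threshold of edgeR. They were 0.82 for Perp (adjusted p = 0.168, edgeR) and 0.65 for Phlda3 (adjusted p = 0.120, edgeR), both p53 targets. Chek2 had 0.54 (adjusted p = 0.288, edgeR) and the death receptor gene Tnfrsf1a 0.27 (adjusted p = 0.0570, edgeR). In the other direction, Trp63 had -0.48 (adjusted p = 0.300, edgeR) and the p53 target Xpc -0.26 (adjusted p = 0.256, edgeR). Perp had at most 34 reads in any library, Chek2 41, Trp63 50 and Phlda3 55.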
